A study of Mus musculus with 6 samples.

Results

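Lysosome genes were followed in metastatic mammary tumour cells sorted from mouse lungs. The list held 31 genes that encode lysosomal membrane proteins, proteases, glycosidases and lipid hydrolases, soluble cofactors, subunits of the proton pump, and a transcription factor of the pathway. A gene was represented by the probe set that carried its symbol alone and had the highest mean over the 6 arrays. Of the 31 genes, 30 were measured in this way, and all 30 lay above the level filter that left 13090 genes in the series for testing. Cd63, the symbol of a tetraspanin of late endosomes, was not analysed here.

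The cells were MVT1, a mouse mammary tumour line tagged with green fluorescent protein (GFP), which were injected into a vein of syngeneic FVB/N mice at 3000000 cells per mouse. All 3 groups therefore carried the same line in the same host strain, and GFP-positive cells were sorted from the lungs. The first group came from control mice 1 week after injection, the second from control mice gavaged with vehicle and taken at 2 weeks, and the third from mice gavaged daily with GW2580 at 160 mg per kg and taken at 2 weeks. GW2580 blocks the kinase of the CSF1 receptor, which is made mainly by macrophages and their precursors. Gavage began 1 week after injection, so that it also separated the first group from the second. Each group had 2 arrays. The design text gives 2 mice for each control group and does not give the number behind the GW2580 arrays, so the spread there may be technical. The labels name neither the age nor the sex of the mice.

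Lysosomes are the acidic compartments in which cells break down proteins, glycans and lipids that arrive by endocytosis, phagocytosis or autophagy. Their hydrolases are made in the endoplasmic reticulum, tagged with mannose 6-phosphate and sorted to the organelle, while a proton pump, the V-ATPase, keeps the lumen acidic and heavily glycosylated membrane proteins protect the limiting membrane. The transcription factor TFEB and its relatives bind E-box sequences around the core CACGTG, known in lysosomal promoters as CLEAR elements, and raise the expression of many lysosomal genes together. Macrophages are rich in lysosomes, and several of the listed genes, among them Cd68 and Ctss, are widely used as myeloid markers.

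Promoter sequences were read to show where the listed genes carry the CLEAR core. The RefSeq promoter table (GRCm38.p6), which covers 250 bases before and 50 after each start, held 26 of the 31 genes in 31 windows. The core CACGTG, which reads the same on both strands, occurred for 9 of the 26 genes (34.6%), against 2187 of all 27025 genes in the table (8.09%). The longer form GTCACGTG, searched on both strands and always overlapping a core, occurred for 8 of the 26 genes (30.8%), against 689 of all genes (2.55%). The 5 windows with at least 2 cores before the start are printed here, followed by that of Scarb2, the called gene for which a window was given. Each line gives the 250 bases before the start, 5′ to 3′ on the gene's strand, in lower case with CACGTG in capitals. The stretches are chr8:13158911-13159160 (+ strand) for Lamp1, chr8:3500269-3500518 (+ strand) for Mcoln1, chr7:126583237-126583486 (- strand) for 1 of the starts of Cln3, chr7:142387828-142388077 (- strand) for Ctsd, chrX:134601006-134601255 (- strand) for Gla and chr5:92505658-92505907 (- strand) for Scarb2.
Lamp1: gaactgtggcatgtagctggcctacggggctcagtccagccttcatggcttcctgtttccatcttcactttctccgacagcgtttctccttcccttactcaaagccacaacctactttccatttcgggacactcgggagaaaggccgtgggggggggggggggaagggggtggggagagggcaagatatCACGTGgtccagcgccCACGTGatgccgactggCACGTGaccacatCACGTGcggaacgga
Mcoln1: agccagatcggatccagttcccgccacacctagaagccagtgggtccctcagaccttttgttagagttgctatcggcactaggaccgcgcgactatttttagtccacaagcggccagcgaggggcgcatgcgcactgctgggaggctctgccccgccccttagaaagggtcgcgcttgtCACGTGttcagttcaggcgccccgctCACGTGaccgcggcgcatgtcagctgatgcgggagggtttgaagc
Cln3: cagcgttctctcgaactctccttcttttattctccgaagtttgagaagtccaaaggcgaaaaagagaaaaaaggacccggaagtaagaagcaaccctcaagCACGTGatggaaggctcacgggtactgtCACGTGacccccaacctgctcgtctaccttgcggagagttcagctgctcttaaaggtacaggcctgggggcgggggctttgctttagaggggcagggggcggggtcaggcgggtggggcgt
Ctsd: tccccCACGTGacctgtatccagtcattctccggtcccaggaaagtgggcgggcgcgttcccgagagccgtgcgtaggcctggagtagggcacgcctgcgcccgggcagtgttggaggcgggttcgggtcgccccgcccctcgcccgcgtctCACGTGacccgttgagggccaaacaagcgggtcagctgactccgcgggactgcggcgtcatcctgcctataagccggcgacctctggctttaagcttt
Gla: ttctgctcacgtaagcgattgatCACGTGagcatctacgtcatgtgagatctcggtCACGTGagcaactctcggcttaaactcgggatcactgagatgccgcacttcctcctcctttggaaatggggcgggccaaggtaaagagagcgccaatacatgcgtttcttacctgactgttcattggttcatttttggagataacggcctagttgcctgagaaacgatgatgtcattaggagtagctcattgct
Scarb2: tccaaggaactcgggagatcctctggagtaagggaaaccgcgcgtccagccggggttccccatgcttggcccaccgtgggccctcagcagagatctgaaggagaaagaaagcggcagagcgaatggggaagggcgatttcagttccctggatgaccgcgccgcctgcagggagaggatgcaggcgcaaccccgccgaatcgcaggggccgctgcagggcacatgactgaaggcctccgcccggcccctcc
Lamp1 held 4 cores in these 250 bases, Mcoln1, Cln3, Ctsd and Gla held 2 each, and Scarb2 held 0. Of the genes with expression values, 9 had a core in a window, with a median log2 difference of 0.16 between 2 and 1 weeks (-0.06 to 1.00). The 16 without a core had a median of 0.23 (-0.35 to 0.98). With GW2580 against vehicle these medians were -0.03 and -0.06. A match describes these letters in the window and does not show that a factor binds there.

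Expression values are log2 levels made by RMA, a method that equalises the distribution of probe brightness across arrays, which hides any change common to most genes. A log2 difference of 1 is a 2-fold change, and levels of different genes are not set against each other because their probes differ. Array medians lay between 5.57 and 5.63. The test was limma fitted over all genes and all 6 arrays, with Benjamini-Hochberg adjustment over the 13090 genes. A gene was called, and said to rise or fall, at an adjusted p under 0.05. The second vehicle array at 2 weeks stood apart in one respect: its beta-actin signal at the 3' end was 1.20 log2 units above that at the 5' end, against 0.38 to 0.50 on the other arrays. For glyceraldehyde 3-phosphate dehydrogenase this gap was 0.92 on the same array and -0.13 to -0.10 elsewhere. The keratin genes Krt8 and Krt18, which mark simple epithelium, read 13.52 to 13.82 and 12.93 to 13.44 on the 6 arrays, while Epcam, an epithelial adhesion molecule, read 6.85 to 7.31. Cdh1, for E-cadherin (3.49 to 3.99), and the luminal mammary factor Elf5 (3.92 to 4.22) lay below the filter of 4.97. In sorted bulk cells, fewer cells of a type and less RNA per cell cannot be told apart.

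**Figure D1:**
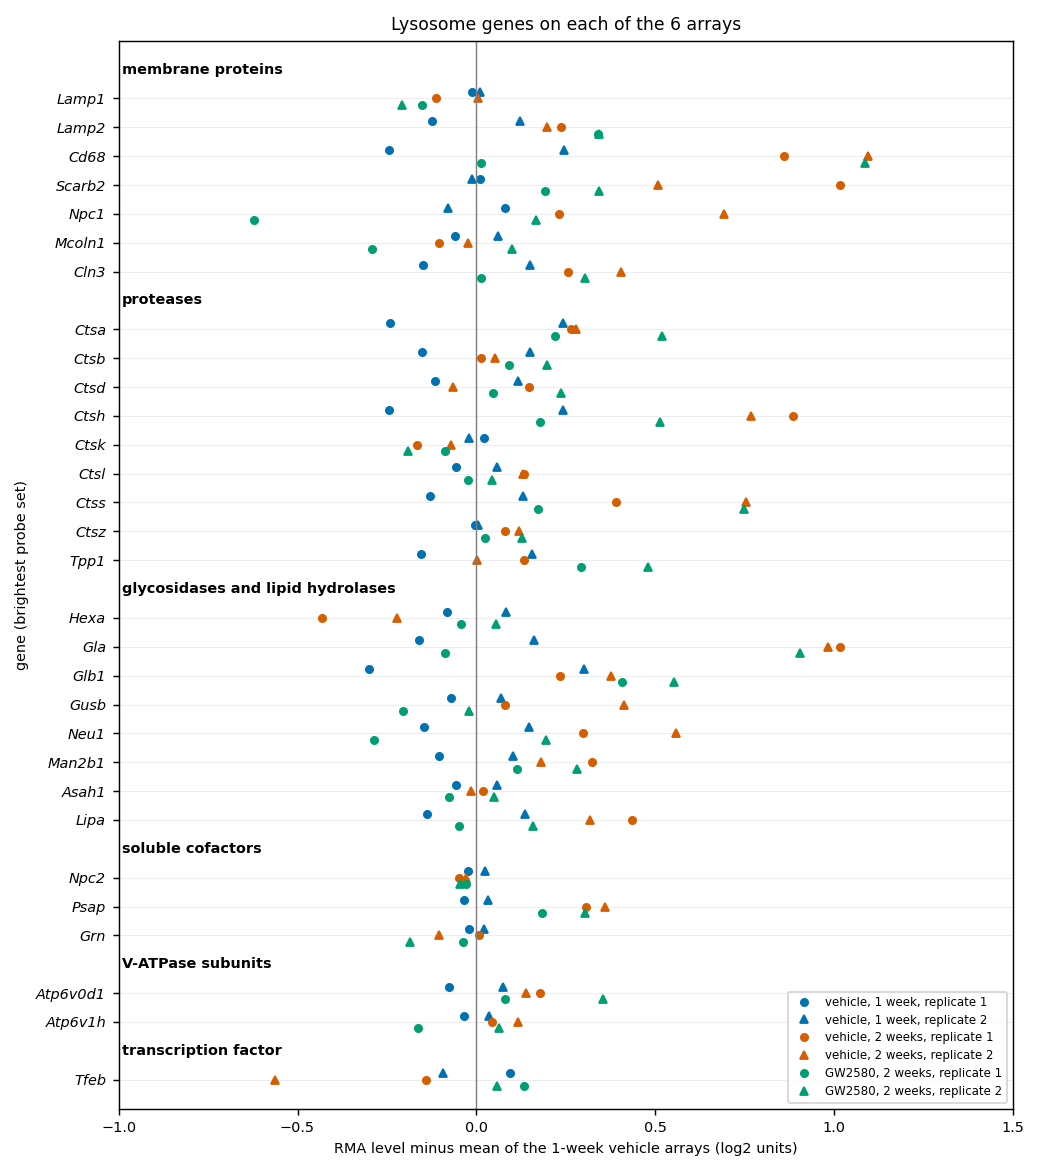
Level of each of the 30 lysosome genes on each array, as the RMA log2 level minus the mean of the 2 vehicle arrays at 1 week. Colours mark the groups, circles replicate 1 and triangles replicate 2. Scarb2, Ctsh, Gla and Cd68 lie to the right of 0 on both vehicle arrays at 2 weeks, and replicate 2 of GW2580 lies near those arrays for Cd68 and Gla while replicate 1 does not.

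Between 1 and 2 weeks in vehicle mice, 2 of the 30 genes rose and none fell, and both were called close to the threshold. These were Scarb2, the gene of the membrane protein LIMP-2, which carries glucocerebrosidase to the lysosome, and Ctsh, the gene of cathepsin H, an aminopeptidase of the papain family. The share called, 6.67%, stood beside 6.45% among all genes tested, of which 3.74% rose and 2.71% fell. At an unadjusted p under 0.05, 7 of the 30 were higher (23.3%, against 14.1% of all genes) and 1 lower (3.33%, against 9.45%). By sign alone, 23 genes were higher at 2 weeks (76.7%, against 52.9% of all genes) and 7 lower. The median log2 difference was 0.19 over the 30 genes and 0.02 over all genes tested. Without replicate 1 of the 1-week group the median was 0.079 and 19 genes were higher, and without its replicate 2 the median was 0.28. With arrays aligned on the median of the genes tested, 19 genes were higher and the median was 0.12, against -0.05 over all genes. The levels of 18 genes (60%) did not overlap between the groups and were higher at 2 weeks, where 31.5% of all genes did so. For 4 genes (13.3%) they did not overlap and were lower, against 25.2% of all genes.

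Among the membrane proteins, Scarb2 read 9.51 and 9.48 on the 1-week arrays, 10.51 and 10.00 on the 2-week vehicle arrays and 9.69 and 9.84 on the GW2580 arrays. The 2-week vehicle arrays lay above all others, 0.51 log2 units apart from each other. The rise was 1.70-fold, a log2 difference of 0.76 (SE 0.18, limma adjusted p 0.0444), from 9.50 ± 0.02 to 10.26 ± 0.36 (SD, n = 2). Leaving out replicate 1 of the 1-week group gave an adjusted p of 0.271 at a difference of 0.77, and leaving out its replicate 2 gave 0.133. With replicate 2 as the lone 2-week vehicle array the difference was 0.51 (limma adjusted p 0.197). With replicate 1 alone, which dropped the array with the wide actin gap, it was 1.02 (limma adjusted p 0.0445). Cd68, which encodes the macrosialin glycoprotein of myeloid late endosomes, read 9.66 and 10.15 at 1 week, 10.76 and 11.00 at 2 weeks with vehicle, and 9.92 and 10.99 with GW2580. Its vehicle groups did not overlap, the difference was 0.98 (SE 0.32) and it was not called (limma adjusted p 0.115). Npc1, the gene of a membrane protein that exports cholesterol from the lysosome, read 7.75 and 7.60, then 7.91 and 8.37 with vehicle and 7.05 and 7.84 with GW2580. Its difference over time was 0.46 (SE 0.26). The structural membrane glycoprotein genes differed little, Lamp1 by -0.05 (SE 0.12) and Lamp2 by 0.22 (SE 0.13). Mcoln1, the gene of a lysosomal calcium channel, differed by -0.06 (SE 0.16), and Cln3, a gene mutated in juvenile neuronal ceroid lipofuscinosis, by 0.33 (SE 0.16).

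Among 9 protease genes, Ctsh read 8.26 and 8.75 at 1 week, 9.39 and 9.28 at 2 weeks with vehicle, and 8.68 and 9.02 with GW2580. Both vehicle arrays at 2 weeks exceeded the other 4 arrays. The rise was 1.77-fold, or 0.83 log2 units (SE 0.19, limma adjusted p 0.0442), from 8.51 ± 0.34 to 9.33 ± 0.08 (SD, n = 2). Its adjusted p was 0.298 without the first replicate at 1 week and 0.0447 without the second, at differences of 0.58 and 1.07. It was 0.185 when the first 2-week vehicle array was left out and 0.127 when the second was, at 0.77 and 0.88. Cathepsin H is abundant in the type II cells of the lung alveolus, where it processes surfactant proteins. Lung epithelium markers did not all move one way. Over time 7 of 10 were higher by sign (52.9% of all genes), and with GW2580 3 were (41.7%). At an unadjusted p under 0.05, 2 were higher and 2 lower over time (20% each, against 14.1% and 9.45% of all genes). With GW2580, 6 were lower at this p (60%, against 12.6% of all genes) and none higher. Of these 6, 2 were called (20% of the list, against 0.298% called lower over all genes). The mean of 10 was 7.47 and 7.22 at 1 week, 7.11 on both vehicle arrays at 2 weeks, and 7.20 and 6.45 with GW2580. The club cell genes Scgb1a1 and Scgb3a2 had the largest differences over time, -3.16 (SE 1.02, limma adjusted p 0.109) and -2.26 (SE 0.75, limma adjusted p 0.114), and were higher with GW2580 by sign, at 1.97 and 1.64. The surfactant protein gene Sftpd read 6.38 and 6.48 at 1 week, 7.50 and 7.13 at 2 weeks with vehicle, and 6.10 and 6.28 with GW2580. Sftpd rose by 0.89 (limma adjusted p 0.0251) and fell by 1.12 with GW2580 (limma adjusted p 0.0445). The surfactant genes Sftpa1, Sftpb and Sftpc had the same signs over time, at 0.62, 0.19 and 0.80, and were not called. With GW2580 Sftpa1 differed by -1.78 and was called (limma adjusted p 0.0489). Sftpb and Sftpc differed by -0.46 and -2.07 and were not called (limma adjusted p 0.229 and 0.0647). The part of lung epithelial cells in the Ctsh difference was not tested. Ctss, the gene of cathepsin S, a protease of antigen-presenting cells, read 8.72 and 8.98, then 9.24 and 9.61 with vehicle and 9.03 and 9.60 with GW2580. It differed by 0.57 over time (SE 0.22, limma adjusted p 0.159). The endopeptidase genes Ctsb, Ctsd and Ctsl were not called. On its brightest probe set, Ctsb, for cathepsin B, lay between 13.03 and 13.38 on all arrays, Ctsd, for the aspartic protease cathepsin D, between 12.21 and 12.57, and Ctsl, for cathepsin L, between 13.37 and 13.57. Their differences over time were 0.03, 0.04 and 0.13, on probe sets near the top of the array's range, and dimmer probe sets of Ctsb differed by 0.88 and 0.63. Ctsz, for the carboxypeptidase cathepsin Z, differed by 0.10, and Ctsa, for the protective protein that stabilises beta-galactosidase and neuraminidase, by 0.27. Ctsk, for the osteoclast collagenase cathepsin K, was lower at 2 weeks by sign at -0.12, between 6.04 and 6.25 on the 6 arrays. Tpp1, for tripeptidyl peptidase 1, differed by 0.07 on its brightest probe set.

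Of 8 glycosidase and lipid hydrolase genes, none was called and 7 were higher at 2 weeks by sign (87.5%, against 52.9% of all genes). Gla, which encodes alpha-galactosidase A, the enzyme deficient in Fabry disease, read 7.94 and 8.26 at 1 week and 9.12 and 9.08 at 2 weeks with vehicle. With GW2580 it read 8.01 and 9.01, close to the 1-week arrays on replicate 1 and to the 2-week vehicle arrays on replicate 2. Its difference over time was 1.00 log2 unit, or 2.00-fold (SE 0.29, limma adjusted p 0.079). Its second probe set differed by 0.40 (SE 0.16), and averaged over probe sets Gla differed by 0.53. Fitted on the 4 vehicle arrays alone, Gla was called (limma adjusted p 0.0169), as was Cd68 (0.0331), while Scarb2 was not (0.0521). Neu1, for the sialidase neuraminidase 1, differed by 0.43 (SE 0.19). Lipa, for lysosomal acid lipase, differed by 0.38 (SE 0.15) and Glb1, for beta-galactosidase, by 0.31 (SE 0.20). Gusb, for beta-glucuronidase, and Man2b1, for alpha-mannosidase, both differed by 0.25. Asah1, for acid ceramidase, stayed between 11.41 and 11.55 on all arrays. Hexa, for the alpha subunit of beta-hexosaminidase, ran the other way, with 11.66 and 11.82 at 1 week and 11.31 and 11.52 at 2 weeks, a difference of -0.33 (SE 0.14, limma adjusted p 0.195).

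Soluble cofactors, pump subunits and the transcription factor held no called gene over time. Psap, for prosaposin, the precursor of the sphingolipid activator proteins, read 12.58 and 12.65, then 12.92 and 12.98 with vehicle and 12.80 and 12.92 with GW2580. It differed by 0.33 over time (SE 0.12, limma adjusted p 0.148). Npc2, for the cholesterol carrier of the lumen, spanned 13.81 to 13.88 and Grn, for progranulin, 13.89 to 14.10 on the 6 arrays, both near the top of the array's range, whose maximum lay between 14.58 and 14.71. Atp6v0d1 and Atp6v1h, for subunits of the membrane and the cytosolic sector of the V-ATPase, differed by 0.16 (SE 0.14) and 0.08 (SE 0.13). Tfeb read 8.35 and 8.16 at 1 week, 8.11 and 7.69 at 2 weeks with vehicle, and 8.39 and 8.31 with GW2580. It was lowest on the 2-week vehicle arrays, with a difference of -0.35 over time (SE 0.17, limma adjusted p 0.248).

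**Figure D2:**
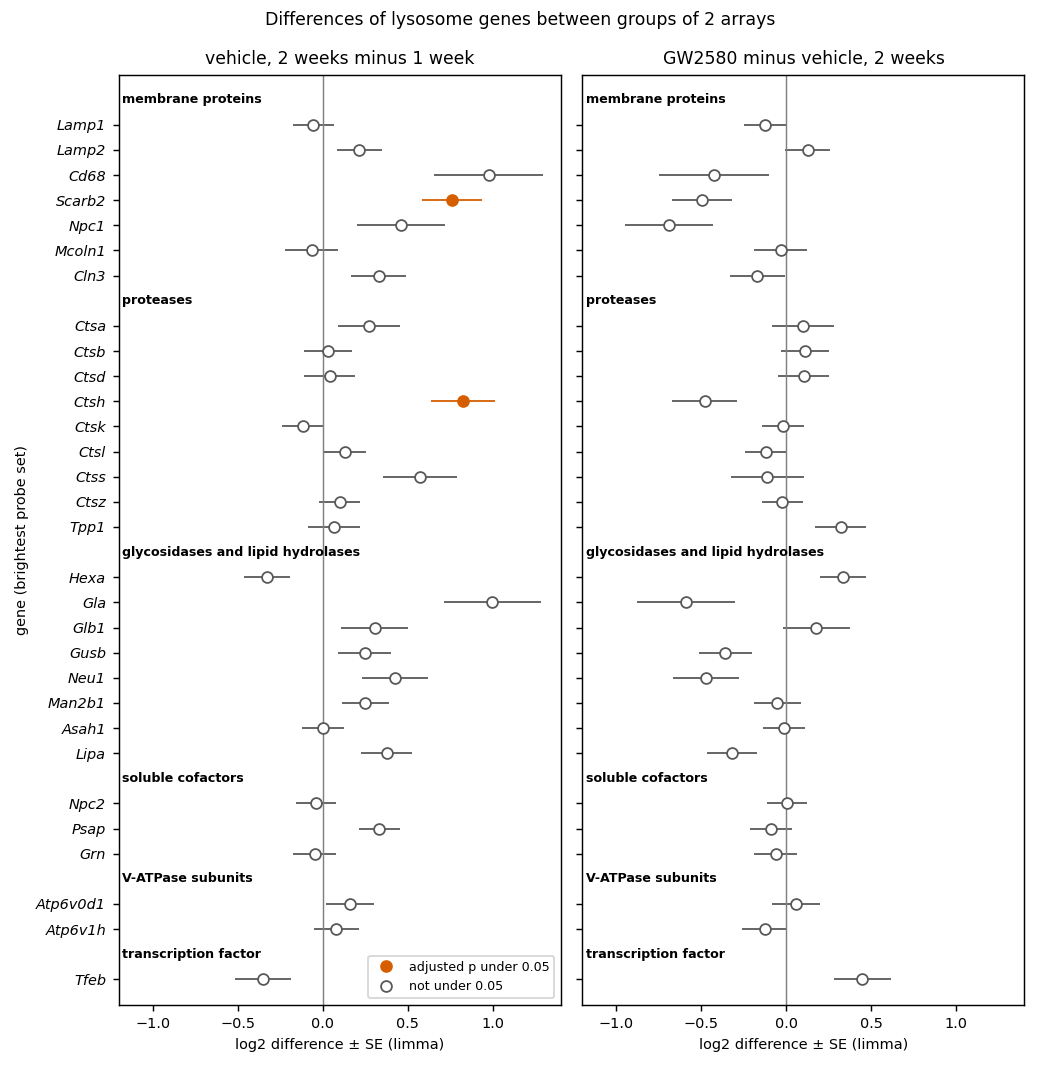
Log2 difference of each lysosome gene, with limma standard errors as bars, between vehicle arrays at 2 and 1 weeks (left) and between GW2580 and vehicle at 2 weeks (right), 2 arrays per group. Filled points mark an adjusted p under 0.05: Scarb2 at 0.76 and Ctsh at 0.83 on the left, and none on the right.

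With GW2580 against vehicle at 2 weeks, none of the 30 lysosome genes was called by limma, with adjusted p between 0.204 and 0.995. Over all genes tested 48 (0.367%) were called, 9 higher (0.0688%) and 39 lower (0.298%), or 23 higher and 45 lower with arrays aligned on the median of the genes tested. At an unadjusted p under 0.05, 2 of the 30 were higher (6.67%, against 5.36% of all genes) and 5 lower (16.7%, against 12.6%). The median difference was -0.06 with the deposited scaling, against -0.05 over all genes. By sign 10 of the 30 genes were higher (33.3%, against 41.7% of all genes) and 20 lower. With arrays aligned on the median of the genes tested, the median was 0.02 (0.04 over all genes) and 14 were lower, and it was 0.011 without replicate 1 of GW2580 and -0.12 without replicate 2. Levels did not overlap for 10 genes that were lower (33.3%, against 31.5% of all genes) and for 6 that were higher (20%, against 18.3%). These shares lay near those of all genes.

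This comparison shares the 2-week vehicle arrays with the comparison over time, so the same array values enter both with opposite sign. Scarb2 differed by -0.49 with GW2580 (SE 0.18, limma adjusted p 0.204) and Ctsh by -0.48 (SE 0.19, limma adjusted p 0.243). Npc1 had the most negative difference, -0.69 (SE 0.26, limma adjusted p 0.221), with its GW2580 arrays 0.79 log2 units apart. Neu1 differed by -0.47 (SE 0.19), Gusb by -0.36 (SE 0.15) and Lipa by -0.32 (SE 0.15). Gla differed by -0.59 (SE 0.29, limma adjusted p 0.325), and without replicate 2 of GW2580 it was the only one of the 30 to be called, at -1.09 (limma adjusted p 0.0471). Without replicate 1 of GW2580 Gla differed by -0.094 (limma adjusted p 0.882). Cd68 differed by -0.43 (SE 0.32) with all arrays, by 0.11 without replicate 1 of GW2580 and by -0.96 without its replicate 2. Ctss differed by -0.11 (SE 0.22), Cln3 by -0.17, Lamp1 by -0.13, Ctsl by -0.12 and Psap by -0.09. On the other side, Tfeb had the most positive difference, 0.45 (SE 0.17, limma adjusted p 0.217). Hexa differed by 0.33 (SE 0.14, limma adjusted p 0.255), Tpp1 by 0.32 (SE 0.15) on its brightest probe set, Glb1 by 0.17 (SE 0.20) and Lamp2 by 0.12 (SE 0.13). Ctsb, Ctsd and Ctsa differed by 0.11, 0.10 and 0.10. The other 9 genes differed by at most 0.13 in either direction, with Atp6v1h at -0.13 and Atp6v0d1 at 0.06. Man2b1, Mcoln1, Asah1, Ctsk and Ctsz lay between -0.05 and -0.02, and Npc2 and Grn at 0.00 and -0.06.

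With GW2580 at 2 weeks against vehicle at 1 week, a comparison in which time and treatment both differ, none of the 30 genes was called by limma (adjusted p 0.242 to 0.99), where 0.512% of all genes were. By sign 20 of the 30 were higher with GW2580 (66.7%, against 45.8% of all genes). The median was 0.12 over the 30 genes and -0.02 over all genes tested. Dropping the first 1-week array gave 0.016 and dropping the second 0.22, while the median was 0.20 without replicate 1 of GW2580 and 0.013 without replicate 2 of GW2580. At an unadjusted p under 0.05, 3 genes were higher and none lower, against 6.64% and 10.4% of all genes. Levels did not overlap for 9 genes that were higher (30%, against 18.8% of all genes) and 4 that were lower (13.3%, against 27.9%). The 3 genes were Lamp2 at 0.34 (SE 0.13), Tpp1 at 0.39 (SE 0.15) and Glb1 at 0.48 (SE 0.20), with limma adjusted p of 0.242, 0.246 and 0.271. Lamp2 read 11.09 and 11.34 at 1 week, 11.45 and 11.41 at 2 weeks with vehicle, and 11.56 on both GW2580 arrays. Glb1 read 9.83 and 10.43, then 10.36 and 10.50 with vehicle, and 10.53 and 10.68 with GW2580. On these probe sets the GW2580 arrays were the highest in both genes, and in Glb1 the 1-week arrays were 0.60 apart. The second probe set of Lamp2 was also highest on the GW2580 arrays. On the third, the 2-week arrays overlapped, at 10.90 and 10.69 with vehicle and 10.61 and 10.77 with GW2580. They also overlapped on the fourth, at 9.45 and 9.26 with vehicle and 9.32 and 9.46 with GW2580.

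**Figure D3:**
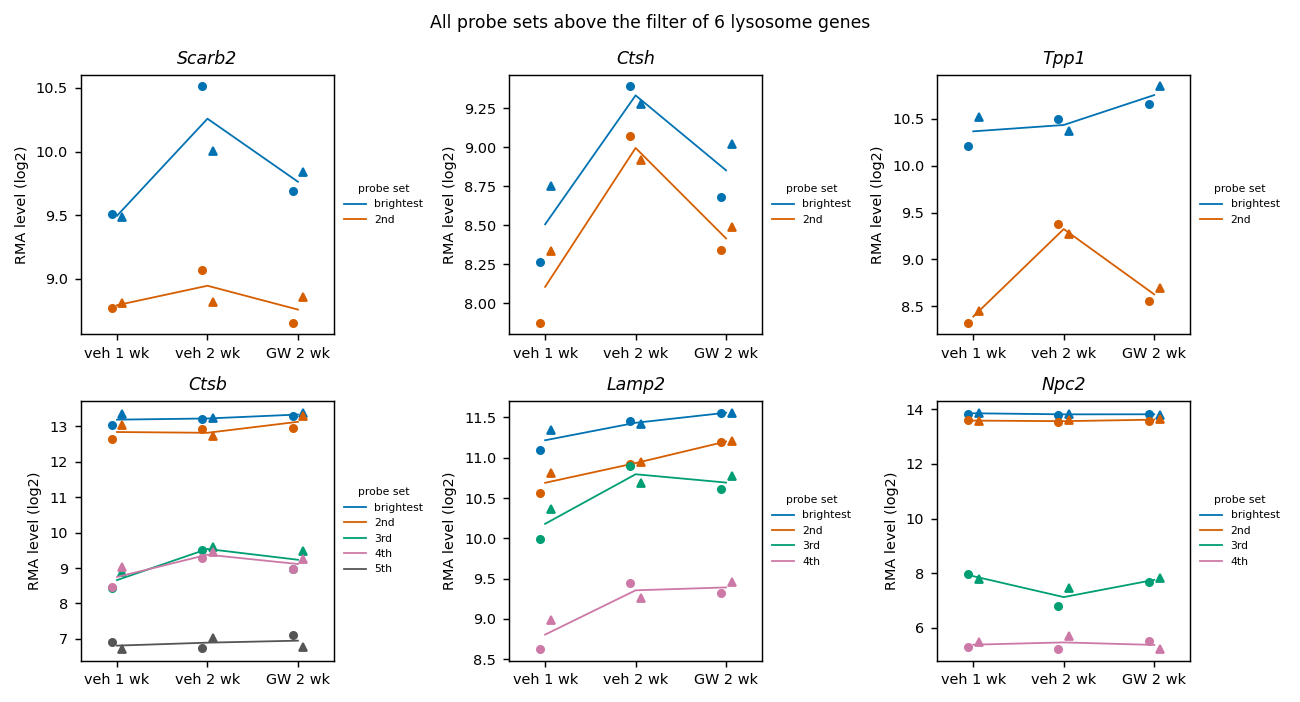
Levels (RMA log2) of all probe sets above the filter for 6 lysosome genes in the 3 groups, with circles for replicate 1, triangles for replicate 2 and lines through group means. Both probe sets of Ctsh peak in the 2-week vehicle group, as do those of Scarb2, where the dimmer one moves less (0.15 against 0.76 over time), whereas those of Tpp1 run differently from each other.

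The probe set chosen for a gene mattered for several members. The 30 genes had 63 probe sets, of which 59 lay above the filter. For 19 genes there were 29 further probe sets above it. Over time 20 of the 29 had the sign of the brightest one and 9 the opposite sign, and with GW2580 19 and 10 did. Tested among all 45037 non-control probe sets, of which 2.39% were called over time, neither brightest probe set of Scarb2 (limma adjusted p 0.0705) nor of Ctsh (0.0701) passed, while 2 of the further ones did.

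The first of these was the other probe set of Ctsh, at 7.88 and 8.34, 9.07 and 8.92, and 8.34 and 8.49 in the order of the groups above, which rose by 0.89 (SE 0.17, limma adjusted p 0.0454) and differed by -0.58 with GW2580 (SE 0.17, limma adjusted p 0.173). The second was the dimmer probe set of Tpp1, at 8.33 and 8.45 at 1 week, 9.38 and 9.27 at 2 weeks with vehicle, and 8.56 and 8.69 with GW2580. The 3 groups did not overlap on it. It rose by 0.93 over time (SE 0.13, limma adjusted p 0.0209) and differed by -0.70 with GW2580 (SE 0.13, limma adjusted p 0.0635), where the brightest probe set of Tpp1 differed by 0.07 and 0.32. The 2 probe sets thus gave opposite signs with GW2580.

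Scarb2 had a dimmer probe set at 8.77 and 8.82, 9.07 and 8.82, and 8.66 and 8.86, which differed by 0.15 over time (SE 0.14) and did not pass. Averaged over its probe sets, Scarb2 differed by 0.46 (limma adjusted p 0.11). Ctsb had 5 probe sets. The brightest pair differed over time by 0.03 and -0.02, whereas the third and the fourth differed by 0.88 (SE 0.21, limma adjusted p 0.076) and 0.63 (SE 0.21, limma adjusted p 0.171). Lamp2 had 4, with differences over time of 0.22, 0.24, 0.62 and 0.55 from the brightest to the dimmest. The third probe set of Npc2, at 7.98 and 7.80, 6.80 and 7.45, and 7.70 and 7.82, differed by -0.77 over time (SE 0.21, limma adjusted p 0.107) and by 0.63 with GW2580. The bright pair of Npc2 differed by -0.04 and -0.02 over time. Which transcripts each probe set detects was not tested.

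**Figure D4:**
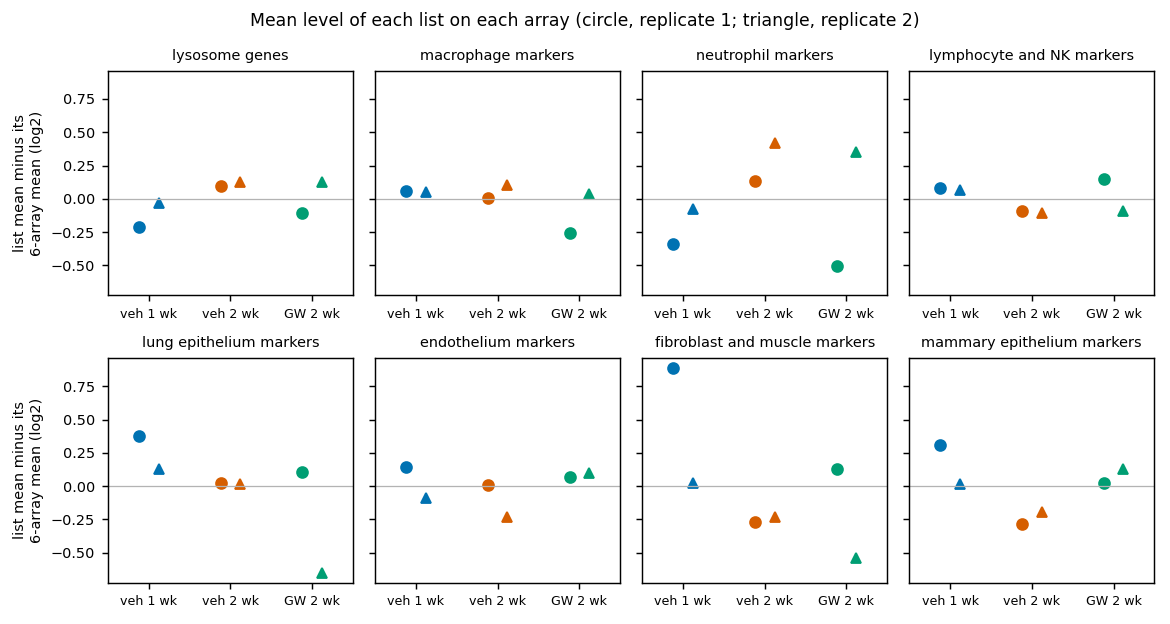
Mean RMA log2 level of the 30 lysosome genes and of 7 lists of cell type markers on each array, minus the mean of that list over the 6 arrays. The means of lysosome genes and of neutrophil markers are lowest on replicate 1 of the 1-week and GW2580 groups, and that of fibroblast and smooth muscle markers is highest on the first of these.

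Replicate arrays differed in the lysosome genes. Replicate 1 was lower than replicate 2 for 26 of 30 genes in the 1-week group and for 25 of 30 in the GW2580 group, against 54.8% and 60.6% of all genes tested. In the 2-week vehicle group it was lower for 17 of 30, against 57.5% of all genes. The mean over the 30 genes was 10.29 and 10.47 at 1 week, 10.60 and 10.62 at 2 weeks with vehicle, and 10.39 and 10.63 with GW2580. Replicate 2 of GW2580 thus lay with the 2-week vehicle arrays, and replicate 1 lay between the 1-week arrays. A gap between replicates above 0.5 was found in the GW2580 group for Cd68, Gla, Npc1 and Ctss, all lower on replicate 1, in the 1-week group for Glb1 and in the 2-week vehicle group for Scarb2.

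Markers of other cell types were read beside these genes. Of 20 macrophage markers 18 were tested, and their mean was 6.86 on both 1-week arrays, 6.81 and 6.90 on the 2-week vehicle arrays, and 6.55 and 6.84 with GW2580. The pan-leukocyte gene Ptprc fell by 0.61 over time (SE 0.13, limma adjusted p 0.0387), from 7.57 and 7.73 to 6.97 and 7.11, opposite in sign to Cd68 and Ctss. By sign the list was split over time, with 8 higher (44.4%, against 52.9% of all genes) and 10 lower. With GW2580 against vehicle, 4 were higher (22.2%, against 41.7% of all genes) and 14 lower, and none was called. At an unadjusted p under 0.05, 3 were lower with GW2580 (16.7%, against 12.6% of all genes) and none higher. Mertk, for a receptor of apoptotic cell uptake, had the list's largest difference, and like Cd68 and Gla it was higher at 2 weeks with vehicle. It read 7.30 to 8.87 on the 6 arrays, highest on the 2-week vehicle pair, and differed by 1.04 over time (SE 0.28, limma adjusted p 0.066) and by -0.77 with GW2580. The complement gene C1qc differed by 0.42 and -0.58. Csf1r, the receptor gene, read 7.22 to 7.91 on the 6 arrays and differed by -0.26 (SE 0.20). Adgre1, a macrophage marker, read at most 5.29, near the filter, Itgam and Aif1, both myeloid markers, had means below it, and the complement gene C1qa read 5.61 to 6.77. Lyz2, for lysozyme, read 8.89 to 9.85 and differed by -0.18 over time. Of 8 neutrophil markers 6 were tested and none was called. Their mean was 5.97 and 6.23 at 1 week, 6.44 and 6.72 at 2 weeks with vehicle, and 5.80 and 6.66 with GW2580. As for Cd68 and Gla, the 2-week vehicle arrays and replicate 2 of GW2580 were the highest. Within the list, S100a9 read lowest on replicate 1 of GW2580 (5.75), where Elane and Ngp read highest (5.85 and 5.43). S100a8 read 7.77 and 8.37, 9.46 and 10.20, and 6.93 and 9.14 in the order of the groups, while the granulocyte receptor gene Csf3r read 5.65 to 5.82. Fibroblast and smooth muscle markers (9 of 10 tested) had a mean of 8.13 and 7.26, 6.98 and 7.01, and 7.37 and 6.71 in the same order. Over time 1 of the 9 was higher and 8 were lower by sign, and none was called. Levels did not overlap and were lower for 5 (55.6%, against 25.2% of all genes). With GW2580 against vehicle, 5 were higher and 4 lower by sign. The lists of lymphocyte and NK cell (5.82 to 6.08), lung epithelium (6.45 to 7.47, with Sftpd and Sftpa1 called lower with GW2580) and endothelium markers (6.15 to 6.52) had the ranges given. The mean of 8 mammary epithelium markers was 9.05 and 8.75 at 1 week and 8.45 and 8.54 at 2 weeks with vehicle. With GW2580 it was 8.76 and 8.86. Over time all 8 were lower by sign, as were all 7 lymphocyte and NK markers tested, where 52.9% of all genes were higher. Levels did not overlap and were lower for 7 of the 8 (87.5%) and 4 of the 7 (57.1%), against 25.2% of all genes. With GW2580, 6 of the 8 and 5 of the 7 were higher (41.7% of all genes). Csn3, for kappa-casein, fell by 0.95 over time (limma adjusted p 0.0294). The part of other cells in the lysosome gene differences was not tested.

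Other lysosomal pathway genes were read from 5 lists of 92 genes that did not include the 31. Of these, 80 were tested and 12 were not analysed or lay below the filter. Over time 1 rose and 1 fell (2.5%, against 6.45% of all genes). By sign 54 were higher (67.5%, against 52.9% of all genes), and the median was 0.12. At an unadjusted p under 0.05, 17 were higher (21.2%, against 14.1% of all genes) and 2 lower (2.5%, against 9.45%). Vps33a, for a subunit of the tethering complexes that fuse vesicles with lysosomes, read 6.66 and 6.93 at 1 week and 7.44 and 7.46 at 2 weeks with vehicle. It rose by 0.66 (SE 0.15, limma adjusted p 0.0444), and with GW2580 it read 6.83 and 7.12. Ctsc, for cathepsin C, the dipeptidyl peptidase that activates granule serine proteases, read 8.06 and 8.11 at 1 week, 6.98 and 7.30 at 2 weeks with vehicle, and 6.87 and 7.36 with GW2580. It fell by 0.95 (SE 0.19, limma adjusted p 0.0331), opposite to Ctsh. By list, the called genes were 0 of 13 V-ATPase subunits (median 0.11), 0 of 12 membrane and transport genes (0.15), 1 of 17 sorting and trafficking genes (0.14), 1 of 25 further hydrolases (0.10) and 0 of 13 regulators and signalling genes (0.07).

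With GW2580 against vehicle, limma called none of the 80 pathway genes, and at an unadjusted p under 0.05, 4 were higher (5%, against 5.36% of all genes) and 10 lower (12.5%, against 12.6%). The median was -0.05, as over all genes. The smallest p-values belonged to Acp5, for tartrate-resistant acid phosphatase, and Hgsnat, for the membrane acetyltransferase of heparan sulfate breakdown. Acp5 read 10.03 on both vehicle arrays and 10.52 and 10.49 with GW2580, a difference of 0.48 (SE 0.12, limma adjusted p 0.11). Hgsnat read 9.50 and 9.48 with vehicle and 8.72 and 9.08 with GW2580, a difference of -0.59 (SE 0.16, limma adjusted p 0.125). Against 1 week, limma called none of the 80 with GW2580. At an unadjusted p under 0.05, 6 were higher (7.5%, against 6.64% of all genes) and 3 lower (3.75%, against 10.4%). Ctsc differed there by -0.97 (SE 0.19, limma adjusted p 0.0711) and Atp6v0a2, for a V-ATPase subunit, by -0.48 (SE 0.14, limma adjusted p 0.147).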

How the data were processed

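Log2 expression values per probe set were deposited by the authors as 1 table of 45101 probe sets on 6 Affymetrix Mouse Genome 430 2.0 arrays. Per the submitters' processing notes they come from RMA, of unstated version. Labelled RNA was hybridised from 2 µg of total RNA, per the labels' protocols. Control probe sets (64) were dropped. Of the others, 34945 carried 1 gene symbol, 932 several and 9160 none in the platform annotation. RefSeq's genes (GRCm38.p6) held 34741 of the 34945 by gene identifier, and 0 symbols changed. The brightest probe set of each of 18193 genes was kept, and genes with a mean below 4.97, the 40th percentile of non-control probe sets, were left out.

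The fit was limma 3.58.1 in R 4.3.3 (lmFit with 3 group means, eBayes without trend, 3 residual and 4.97 prior degrees of freedom). An exact permutation test of 2 arrays against 2 cannot go below p = 0.333 and was not used. Errors are SD of 2 arrays or SE from limma. Precision is limited by the number of arrays. No 2 arrays were duplicates: replicates correlated at 0.992 to 0.995. The procedure was tested on simulated arrays. The members, the pathway and marker lists, and the tests were chosen with earlier results of these data known, so lists were described by counts and medians, with no list test. All 30 measured members are named. Of the pathway lists, called genes or the 2 with the smallest p are named, and of the marker lists a few defining genes. Mertk, C1qc, S100a8, S100a9, Csf3r, Elane, Ngp, Sftpa1, Sftpb, Sftpc, Sftpd, Scgb1a1, Scgb3a2 and Csn3 were added after their values were seen. Alternatives covered the filter, the probe set choice, scaling, the arrays fitted, eBayes options, the replicate number as a block and leaving out each array. Promoter windows came from RefSeq and were searched for exact matches.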

Additional observations from a re-analysis of the deposited data

How the results depend on the processing

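Over time, limma called 844 of 13090 genes in the reported fit and 739 of 12189 when probe sets of a gene were averaged. Among all 45037 probe sets it called 1075. It called 950 genes with arrays aligned on the median of the genes tested and 1223 with the replicate number as a block. In the same order, the count of lysosome genes called over time was 2, 1, 0, 1 and 5. It ranged from 0 to 3 when 1 array was left out, where a lone array is assumed to vary like the other groups. With GW2580 the count of 0 ranged from 0 to 1, and against 1 week it was 0 throughout. Same-numbered arrays did not deviate together in every pair (correlations of 0.00, 0.29 and 0.01 over 13090 genes), so the numbers are not taken to pair samples; the block added Cd68, Ctss and Gla over time. Of 15 alternatives, Scarb2 passed in 6 (limma adjusted p 0.028 to 0.271) and Ctsh in 11 (0.0282 to 0.298). Over time, leaving out either GW2580 array gave the same fit as the 4 vehicle arrays alone, so the 15 alternatives were not all distinct. Leaving out 1 array gave medians of 0.079 to 0.28 over time, -0.12 to 0.011 with GW2580 and 0.013 to 0.22 against 1 week. The spread of the median between replicates was 0.115.

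Sign changes occurred in 25 of 63 gene results, none with an adjusted p below 0.463, and the cause was not tested. At a common 75th percentile the differences over time were -0.033 for Asah1 and -0.0026 for Ctsb, and those with GW2580 were 0.010 for Asah1, 0.0057 for Ctsk and 0.0020 for Ctsz. With arrays aligned on the median of the genes tested they were -0.066 for Asah1, -0.036 for Ctsb, -0.028 for Ctsd and -0.0010 for Tpp1 over time. With GW2580 they were 0.068 for Asah1, 0.063 for Ctsk, 0.060 for Ctsz, 0.021 for Grn, 0.029 for Man2b1 and 0.051 for Mcoln1. Averaged over probe sets they were -0.0060 for Atp6v1h, 0.083 for Grn, -0.094 for Gusb and 0.17 for Mcoln1 over time. With GW2580 they were -0.018 for Ctsb, 0.13 for Ctsl, 0.078 for Man2b1, 0.092 for Psap and -0.19 for Tpp1. Leaving out 1 array gave ranges over time of -0.11 to 0.0037 for Lamp1, -0.12 to 0.18 for Ctsb, -0.076 to 0.16 for Ctsd, -0.087 to 0.22 for Tpp1, -0.056 to 0.061 for Asah1 and -0.10 to 0.0087 for Grn. With GW2580 the ranges were -0.96 to 0.11 for Cd68, -0.23 to 0.16 for Mcoln1, -0.051 to 0.25 for Ctsa, -0.0051 to 0.21 for Ctsd, -0.072 to 0.031 for Ctsk, -0.40 to 0.18 for Ctss, -0.076 to 0.028 for Ctsz, -0.14 to 0.029 for Man2b1, -0.078 to 0.046 for Asah1, -0.0068 to 0.012 for Npc2, -0.14 to 0.012 for Grn and -0.080 to 0.19 for Atp6v0d1. Over all genes tested, the 844 called over time fell to between 0 and 413 when a vehicle array was left out. With GW2580 the 48 became 0 on the 4 arrays compared (2120 at an unadjusted p under 0.05 by limma), 131 with a trend and robust prior, 154 with the replicate block, 193 among all probe sets, 74 without the filter and 0 to 167 without 1 array.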
